A study of Mus musculus with 12 samples.

Results

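The immediate early genes of the EGR, AP-1 and IER families were followed in mouse myeloid-derived suppressor cells (MDSCs) that carried drug-free or rapamycin-loaded nanoparticles. The 10 genes were taken by symbol from the deposited count table: Egr1, Egr2, Egr3, Fos, Fosb, Jun, Junb, Ier2, Ier3 and Atf3. They are 10 of 35303 symbols, and all 10 were among the 17676 symbols tested. Fosb, with 1 to 14 reads per library, was the one member near the detection limit. Polyadenylated RNA was sequenced from 12 libraries in 3 groups of 4, which the study describes as biologically independent. The first group, MDSC, held unmodified cells. The second, MDSC-NP-Blk, held cells with blank particles of poly(lactide-co-glycolide), a degradable polyester, on their surface. The third, CITED, held cells with the same kind of particle loaded with rapamycin, an inhibitor of the kinase mTOR.

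All groups shared the wild-type genotype, an origin in bone marrow of female C57BL/6 mice cultured with IL-6 and GM-CSF, selection for CD11b and Gr1, and a last culture with IL-6 before RNA was taken. Particles were clicked onto cells that had been fed an azido sugar and were then rotated with the particles and washed. The sources do not say whether unmodified cells went through the sugar or a mock conjugation. Particle and handling therefore cannot be told apart in the comparisons with unmodified cells. The cells were a mixture of monocytic and granulocytic suppressor cells, and in such bulk libraries a shift in the mixture and a change per cell cannot be told apart. The tissue label reads CNS, whereas the methods describe cultured marrow cells. All 8 MDSC markers examined were above 3 counts in every group. Their summed level in CPM (counts scaled to library size) was lowest with rapamycin particles, at 24612 to 27600. It was 27927 to 31127 without particles and highest with blank particles, at 31763 to 33431, so the ranges did not overlap.

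Immediate early genes are the first that a cell transcribes after a stimulus, because the factors needed for their induction are already present. Their promoters are classically bound by serum response factor at CArG boxes and by CREB proteins at cyclic AMP response elements. EGR proteins are zinc finger factors; Fos and Jun proteins pair to form AP-1; Atf3 is a stress-responsive relative of that family; Ier2 and Ier3 are small regulators induced with them. In myeloid cells Egr1 and Egr2 are known for their part in monocyte and macrophage differentiation. Their transcripts are short-lived, and RNA here was taken after the last culture rather than in the minutes after conjugation.

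The promoters of 6 members are shown so that these motifs can be read beside genes with large and with small differences between the groups. Each is the stretch of 140 bases that ends next to the first base of the gene's main GENCODE transcript, read 5′ to 3′ on the gene's own strand in GRCm39. Capitals mark CArG boxes and the half-site TGACG of the cyclic AMP response element on either strand. The Egr2 stretch is chr10:67373552-67373691 on the plus strand and Fos is chr12:85520518-85520657 (plus). Junb is chr8:85705348-85705487 (minus), Ier2 is chr8:85389484-85389623 (minus), Jun is chr4:94940460-94940599 (minus) and Atf3 is chr1:190915538-190915677 (minus). The Egr2 and Atf3 stretches lie inside the annotated gene, because other transcripts start further upstream.
Egr2: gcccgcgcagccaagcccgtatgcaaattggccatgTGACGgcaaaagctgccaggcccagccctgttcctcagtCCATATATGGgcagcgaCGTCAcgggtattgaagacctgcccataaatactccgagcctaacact
Fos: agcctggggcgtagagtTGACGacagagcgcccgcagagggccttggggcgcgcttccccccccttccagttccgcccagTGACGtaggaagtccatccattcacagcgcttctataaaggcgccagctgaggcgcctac
Junb: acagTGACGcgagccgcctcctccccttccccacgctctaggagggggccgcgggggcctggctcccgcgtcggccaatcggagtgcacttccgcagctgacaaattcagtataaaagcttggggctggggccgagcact
Ier2: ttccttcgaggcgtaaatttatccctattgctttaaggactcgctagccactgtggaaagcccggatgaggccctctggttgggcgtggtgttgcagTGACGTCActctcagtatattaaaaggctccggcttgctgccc
Jun: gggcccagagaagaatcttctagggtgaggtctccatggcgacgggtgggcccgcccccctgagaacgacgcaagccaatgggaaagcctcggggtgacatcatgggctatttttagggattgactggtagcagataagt
Atf3: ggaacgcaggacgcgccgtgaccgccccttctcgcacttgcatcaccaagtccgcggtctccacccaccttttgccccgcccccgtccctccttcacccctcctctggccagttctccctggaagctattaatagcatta

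Egr2 held the CArG match CCATATATGG at 65 to 56 bases before the start, between 2 TGACG half-sites. Fos held a half-site at 60 to 56 bases before its start and a TATAAA match at 27 to 22 bases. Ier2 held the full palindrome TGACGTCA at 43 to 36 bases. In windows of 300 bases before the start, searched on both strands, CArG boxes were found in 3 of 10 members, Egr2 and Fosb among them, and in 1.45% of 15041 protein-coding promoters. TGACG was found in 7 of 10 members and in 23.7% of promoters, and TGACGTCA, which contains it, in 1 member and in 1.91% of promoters. The members without either CArG box or half-site in that window were Jun, Ier3 and Atf3. The AP-1 site TGAGTCA was in no member and in 4.08% of promoters, the EGR site GCGNGGGCG in 1 member (Fosb) and in 5.92%, TATAAA in 2 members (Fos and Junb) and in 9.99%, and the kappaB site in 3 members (Fos, Fosb and Ier3) and in 5.32%. These are letter matches and no binding was measured.

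Libraries held 20604809 to 37855478 counts. The 4 MDSC-NP-Blk libraries fell in 2 pairs: the chi-square per degree of freedom of their counts was 5.69 between replicates 1 and 4 and 5.91 between replicates 2 and 3, but 15.7 to 21.8 across the pairs, against 4.72 to 9.60 within the other groups. The members' differences and the list counts were therefore also fitted without either pair, an alternative chosen after seeing the data. The counts of members called below were the same without either pair. The TMM factor ran from 1.12 to 1.15 for unmodified cells, from 0.938 to 0.947 for blank particles and from 0.921 to 0.944 for rapamycin particles. Scaling by library totals alone moved the median log2 difference of all tested genes from -0.052 to -0.323 for CITED against MDSC and from -0.027 to -0.286 for MDSC-NP-Blk against MDSC. It also moved the calls from 580 higher and 1185 lower to 272 higher and 1890 lower for CITED, and from 333 and 505 to 146 and 1060 for MDSC-NP-Blk. Some marker lists of other cells also moved with the groups, while those of T cells, dendritic cells and stromal cells overlapped between all groups. Summed megakaryocyte and platelet markers were 208 to 235, 263 to 281 and 285 to 307 CPM in MDSC, MDSC-NP-Blk and CITED, and summed B cell markers were 12.6 to 16.9, 6.73 to 9.56 and 2.67 to 3.84. Summed mature macrophage markers were 485 to 506, 412 to 464 and 625 to 691, and those of mast cells and basophils 229 to 247, 210.0 to 240.3 and 140.1 to 144. Mitochondrial genes took 1.88% to 2.13% of counts without particles, at most 1.68% with blank and 1.40% to 1.53% with rapamycin particles. The rank correlation of a library's deviation with transcript length was 0.22 to 0.35 without particles, -0.42 to 0.09 with blank and -0.34 to -0.19 with rapamycin particles. The part of these differences in the results below was not tested.

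Both kinds of particle were accompanied by higher levels of most immediate early genes than unmodified cells had, with the largest rise in Egr1 and differences near those of housekeeping genes in Jun and Atf3. A gene was called when its adjusted p was below 0.05 (edgeR quasi-likelihood test, Benjamini-Hochberg over all genes tested) and its log2 fold change was at least 1. With blank particles 7 of 10 members were called higher, where 1.88% of all genes were, and with rapamycin particles 7 of 10, where 3.28% were. They were Egr1, Egr2, Egr3, Fos, Junb, Ier2 and Ier3 in both comparisons, which share the unmodified libraries. No member was called lower, where 2.86% and 6.70% of genes were. By adjusted p alone 9 of 10 differed in each, all higher, where 38.6% and 44.5% of genes differed in either direction. The median log2 fold change of the members was 1.30 with blank and 1.33 with rapamycin particles, against -0.03 and -0.05 over all genes tested. Without replicates 2 and 3 of MDSC-NP-Blk, the log2 fold changes with blank particles were 2.18 for Egr1, 1.38 for Egr2, 1.09 for Fos, 1.58 for Junb, 1.05 for Ier2 and 1.37 for Ier3. Without replicates 1 and 4 they were 2.58, 1.71, 1.40, 1.61, 1.12 and 1.27.

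**Figure D1:**
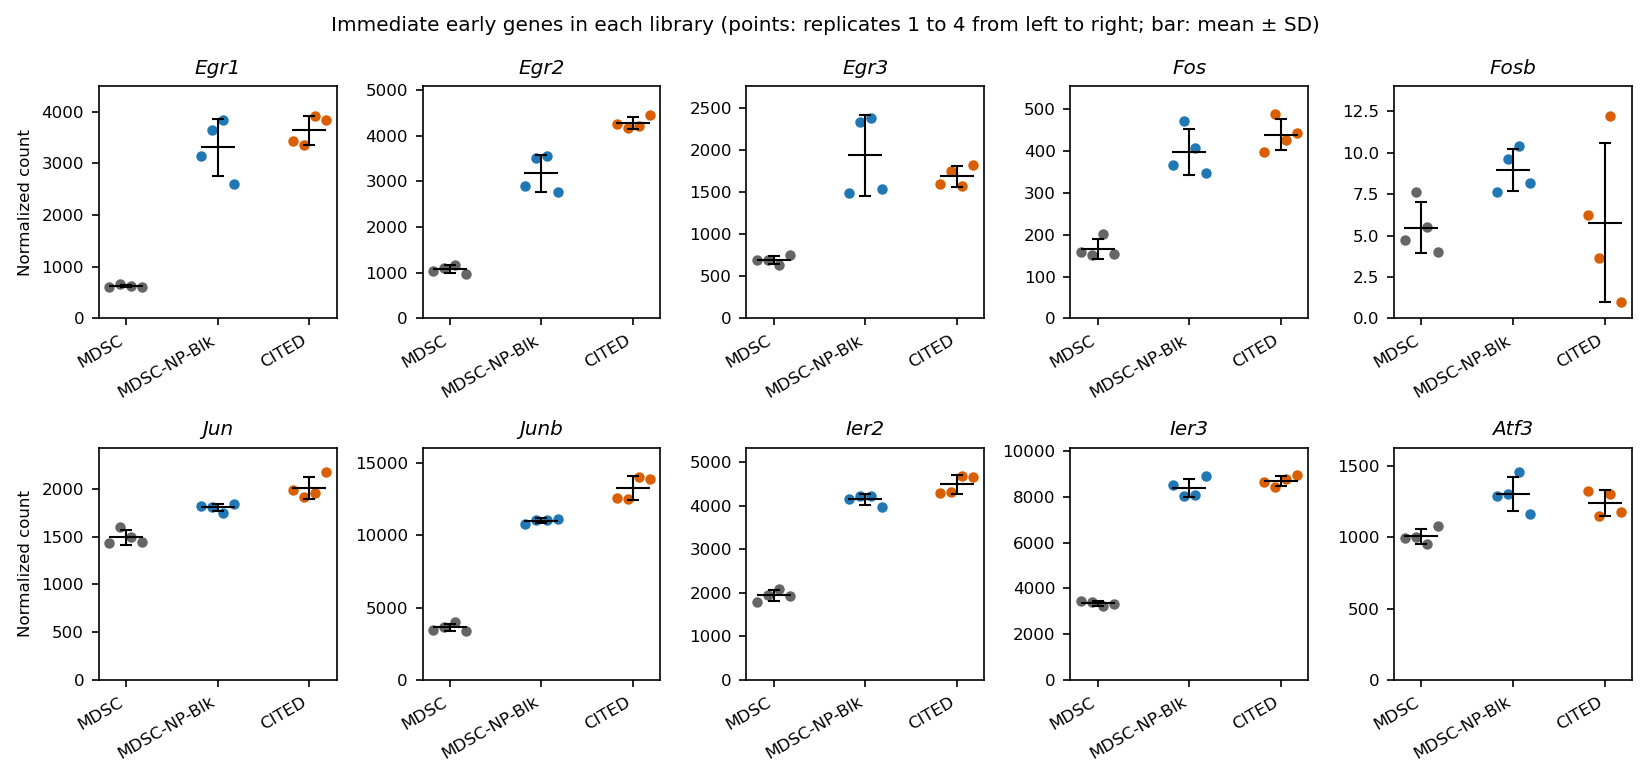
Normalized counts of the 10 genes (vertical axes, linear from 0) in each library of MDSC, MDSC-NP-Blk and CITED; points are replicates and bars are the mean ± SD of 4. Egr1 sits at 605 to 663 in MDSC and at 2602 to 3913 in the other 8 libraries, whereas Jun and Atf3 differ little and Fosb stays near the detection limit.

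Egr1, an EGR factor induced by growth factor and cytokine signals, stood at normalized counts of 613, 663, 626 and 605 in MDSC replicates 1 to 4. It stood at 3148, 3638, 3837 and 2602 in MDSC-NP-Blk and at 3440, 3357, 3913 and 3847 in CITED. The lowest library with particles was thus well above the highest without. Egr1 rose 5.28-fold with blank particles (log2 fold change 2.40, SE 0.0839, adjusted p = 1.8e-21) and 5.81-fold with rapamycin particles (2.54, SE 0.0842, adjusted p = 1.0e-22). Among 10556 genes with a mean normalized count above 50, these were the 6th and 11th highest log2 fold changes. 

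Egr2, known for its part in macrophage identity and in restraint of T cell activation, stood at 1045, 1111, 1168 and 975 in MDSC. It reached 2893, 3506, 3544 and 2762 in MDSC-NP-Blk and 4254, 4155, 4219 and 4449 in CITED. The 3 groups did not overlap. Egr2 rose 2.96-fold with blank particles (log2 1.57, SE 0.0702, adjusted p = 8.3e-19) and 3.97-fold with rapamycin particles (1.99, SE 0.0706, adjusted p = 5.7e-22).

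Egr3, a close relative that acts with Egr2 in lymphocytes, stood at 699.9, 697, 636 and 752 in MDSC. In MDSC-NP-Blk it was 1496, 2333, 2385 and 1542, and in CITED 1594, 1756, 1578 and 1831. Replicates 2 and 3 with blank particles lay above every CITED library and replicates 1 and 4 below. Egr3 rose 2.80-fold with blank (log2 1.48, SE 0.105, adjusted p = 9.8e-14) and 2.43-fold with rapamycin particles (1.28, SE 0.106, adjusted p = 1.9e-12). Without replicates 2 and 3 the log2 fold change with blank particles was 1.11, and without replicates 1 and 4 it was 1.76.

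Fos, the AP-1 subunit that cannot pair with itself and needs a Jun partner, was low throughout. Its normalized counts were 159.6, 150.4, 203 and 153 in MDSC, 366, 472, 408 and 348 in MDSC-NP-Blk, and 399, 488, 426 and 444 in CITED. Groups with and without particles did not overlap. Fos rose 2.41-fold with blank (log2 1.27, SE 0.116, adjusted p = 4.2e-11) and 2.64-fold with rapamycin particles (1.40, SE 0.116, adjusted p = 2.0e-12). For its relative Fosb, the raw counts were 6, 8, 6 and 4 in MDSC, 6, 14, 10 and 7 in MDSC-NP-Blk, and 5, 3, 11 and 1 in CITED. A difference in Fosb was not detectable at this depth: its log2 fold change was 0.71 with blank particles (95% interval -0.83 to 2.25, adjusted p = 0.494) and 0.07 with rapamycin particles (-1.52 to 1.66, adjusted p = 0.967).

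Junb, a Jun protein that often restrains Jun activity and is induced by cytokine receptors, was the most abundant of the AP-1 members in counts. It stood at 3448, 3690, 3974 and 3402 in MDSC, 10769, 11083, 11046 and 11130 in MDSC-NP-Blk, and 12556, 12535, 14039 and 13881 in CITED. The 3 groups formed 3 separate bands. Junb rose 3.03-fold with blank (log2 1.60, SE 0.0530, adjusted p = 4.8e-22) and 3.65-fold with rapamycin particles (1.87, SE 0.0534, adjusted p = 1.7e-24).

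Jun, the founding AP-1 subunit, stood at 1433, 1603, 1495 and 1444 in MDSC, 1820, 1811, 1753 and 1841 in MDSC-NP-Blk, and 1994, 1914, 1962 and 2175 in CITED. The bands did not overlap but lay close together. The log2 fold change was 0.27 with blank (SE 0.0594, adjusted p = 2.7e-04) and 0.43 with rapamycin particles (SE 0.0594, adjusted p = 1.7e-07), below the call threshold. These differences depended on the scaling: with library totals alone they were 0.01 (adjusted p = 0.907) and 0.16 (adjusted p = 0.0299), and on the per-length scale TPM (counts divided by transcript length, with a constant sum in each library) the Jun level was 44.8 ± 1.82 in MDSC, 41.6 ± 0.936 with blank and 46.5 ± 2.99 with rapamycin particles (SD, n = 4). On the main scale 9 tested housekeeping genes had a median log2 fold change of 0.35 with blank and 0.34 with rapamycin particles, and ranged from -0.17 for Ppia to 0.85 for Rplp0 with blank and from -0.45 for Ppia to 0.82 for Rplp0 with rapamycin particles. Ppia fell in both (adjusted p = 0.0066 and 1.9e-09). The part of scaling in the Jun difference was not tested further.

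Ier2, a nuclear immediate early protein, stood at 1795, 1956, 2096 and 1931 in MDSC, 4149, 4237, 4228 and 3978 in MDSC-NP-Blk, and 4290, 4323, 4690 and 4674 in CITED. Every library with particles lay above every library without. Ier2 rose 2.13-fold with blank (log2 1.09, SE 0.0543, adjusted p = 1.2e-17) and 2.31-fold with rapamycin particles (1.21, SE 0.0544, adjusted p = 2.5e-19). It was the called member nearest the threshold: with library totals alone its log2 fold changes were 0.83 and 0.93, and with a correction for transcript length 0.92 with blank particles, all under the fold required. The lowest value under any alternative was 1.00 for Fos with blank and 1.01 for Egr3 with rapamycin particles. Mean TPM levels in MDSC, MDSC-NP-Blk and CITED were 122, 200.1 and 218 for Ier2 and 281, 541 and 564 for Ier3. They were 7.56, 13.9 and 15.4 for Fos and 15.3, 32.9 and 28.7 for Egr3. By these means Ier2 missed the fold required in both comparisons, Fos and Ier3 with blank and Egr3 with rapamycin particles.

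Ier3, which protects cells from death signals and is a target of NF-kappaB, stood at 3430, 3400, 3226 and 3310 in MDSC, 8523, 8019, 8094 and 8904 in MDSC-NP-Blk, and 8663, 8417, 8783 and 8948 in CITED. The groups with particles overlapped each other and lay far above MDSC. Ier3 rose 2.51-fold with blank (log2 1.33, SE 0.0484, adjusted p = 6.1e-21) and 2.60-fold with rapamycin particles (1.38, SE 0.0485, adjusted p = 4.4e-22).

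Atf3, the stress-induced bZIP factor that dampens inflammatory genes, stood at 992, 999, 956 and 1081 in MDSC, 1290, 1307, 1457 and 1161 in MDSC-NP-Blk, and 1328, 1151, 1304 and 1178 in CITED. The log2 fold change was 0.37 with blank (SE 0.0727, adjusted p = 6.9e-05) and 0.30 with rapamycin particles (SE 0.0730, adjusted p = 8.1e-04), again near the housekeeping median. With library totals alone these were 0.11 (adjusted p = 0.227) and 0.03 (adjusted p = 0.809), and the per-length level was 48.6, 48.3 and 46.1 TPM in MDSC, MDSC-NP-Blk and CITED.

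By normalized counts, MDSC-NP-Blk lay wholly above MDSC for 10 of 10 members, where 18.1% of genes did so. CITED lay wholly above MDSC for 9 of 10, where 21.2% did, and the exception was Fosb. For Fosb the lowest MDSC-NP-Blk value was 7.65 against a highest MDSC value of 7.61, and the raw counts overlapped. On the TPM scale Jun lay lower in MDSC-NP-Blk, at 40.5 to 42.4, than in MDSC, at 42.7 to 46.5. The strand used in counting was not stated, which matters for 3 members. An antisense RNA shares 15.9% of the 31-base words of the Jun transcript and another shares 33.2% of those of Ier3, and 2.64% of those of Junb occur on the other strand of other genes. Reads from these partners cannot be told apart from the members' own.

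**Figure D2:**
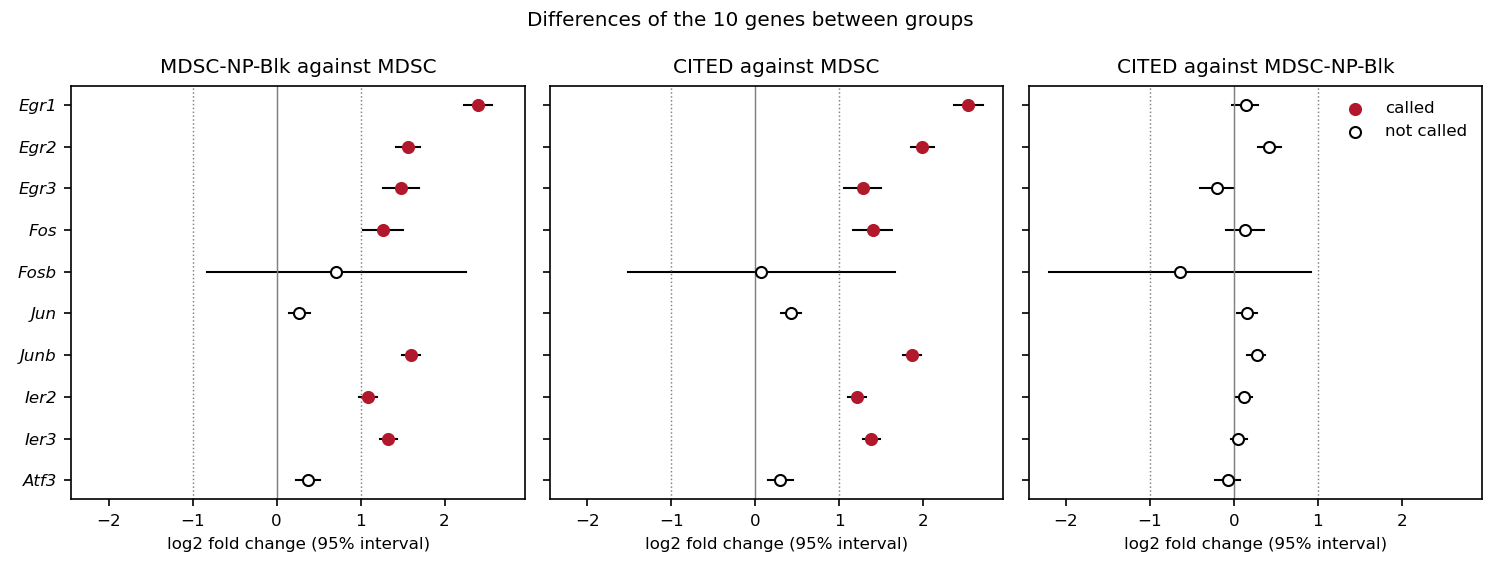
Log2 fold change of each gene (points) with its 95% interval (lines) in 3 panels, MDSC-NP-Blk against MDSC, CITED against MDSC, then CITED against MDSC-NP-Blk; filled points are called, and dotted lines mark the fold threshold. In the first 2 panels 7 points are filled, from Ier2 at 1.09 and 1.21 to Egr1 at 2.40 and 2.54, and in the third none is.

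CITED and MDSC-NP-Blk both carried particles, so their comparison asks what the rapamycin load adds. The sources do not say whether these groups were prepared together, so load and preparation cannot be told apart. The members differed little: none was called higher, where 0.651% of genes were, and none lower, where 2.00% were. DESeq2 also called none. By adjusted p alone 2 members differed, Egr2 and Junb, where 22.0% of genes did. An unadjusted p under 0.05 was reached by 4 members, and the share over all genes at that threshold was not computed. The groups did not overlap, with CITED higher, for 4 members (Egr2, Jun, Junb and Ier2), where 10.4% of genes did so. The median member log2 fold change was 0.12, against 0.00 over all genes tested.

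Egr2 was 1.34-fold higher with rapamycin (log2 0.42, 95% interval 0.29 to 0.56, adjusted p = 7.2e-06). It was higher whichever pair of MDSC-NP-Blk libraries was left out, at 0.59 without replicates 2 and 3 (adjusted p = 2.3e-10) and 0.28 without replicates 1 and 4 (adjusted p = 2.2e-04). Junb was 1.20-fold higher (log2 0.27, 0.16 to 0.37, adjusted p = 1.3e-04), and was 0.28 and 0.26 without either pair.

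For the others the intervals bound the difference. Jun was 0.16 higher on the log2 scale (0.04 to 0.28, adjusted p = 0.0571) and Ier2 0.12 (0.01 to 0.22, adjusted p = 0.128). Fos differed by 0.13 (-0.09 to 0.36, adjusted p = 0.438), Ier3 by 0.05 (-0.04 to 0.15, adjusted p = 0.475) and Atf3 by -0.07 (-0.22 to 0.07, adjusted p = 0.541). The 95% interval of the fold was 0.971 to 1.11 for Ier3 and 0.858 to 1.05 for Atf3. Fosb, at -0.64 (-2.20 to 0.92, adjusted p = 0.622), could not be placed.

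The differences in Egr1, Egr3, Fos, Ier3 and Atf3 changed sign with the pair of MDSC-NP-Blk libraries that was kept. Egr1 was 0.14 higher in CITED (-0.02 to 0.29, adjusted p = 0.231), but 0.34 without replicates 2 and 3 (adjusted p = 1.7e-04) and -0.04 without replicates 1 and 4 (adjusted p = 0.757). Egr3 was -0.20 (-0.41 to 0.00, adjusted p = 0.168), but 0.15 without replicates 2 and 3 (adjusted p = 0.183) and -0.48 without replicates 1 and 4 (adjusted p = 1.5e-07). Fos was 0.30 (adjusted p = 0.11) and -0.01, Ier3 -0.00 and 0.11 (adjusted p = 0.107), and Atf3 0.02 and -0.15 (adjusted p = 0.162) without replicates 2 and 3 and without replicates 1 and 4. Jun, at 0.14 and 0.17, and Ier2, at 0.15 and 0.09, kept their sign.

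The make-up of the Jun and EGR families differed between cells with and without particles, and that of the Fos family between CITED and the other groups. Shares were taken within each library from TPM levels, so they do not depend on how libraries were scaled, and they show unequal change only. The shares of a family sum to the whole, so its tests are not separate results. Genes of a family differ in transcript length, and the part of the length trend in the shares was not tested. Of the summed Jun, Junb and Jund level, Junb made up 46.5% ± 1.16 in MDSC, 61.7% ± 1.29 with blank and 62.8% ± 1.49 with rapamycin particles (SD, n = 4). Jun made up 10.9% ± 0.442, 5.74% ± 0.0498 and 5.41% ± 0.271, and Jund the rest. The summed level itself was 413 ± 24.7, 725 ± 19.2 and 861 ± 55.7 TPM. The shares of all 3 genes differed between MDSC and either group with particles with no overlap (two-sided exact permutation test, p = 0.0286, the smallest that 4 against 4 libraries allow; adjusted p = 0.0406 over 27 tests of family shares). Between CITED and MDSC-NP-Blk the Jun share was lower by 0.327 percentage points by the same test and p, and the Junb share overlapped (exact p = 0.314).

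Among Fos genes the most abundant in every group was Fosl2, with 73.0% ± 1.69, 71.1% ± 1.92 and 78.2% ± 0.933 of the family in MDSC, MDSC-NP-Blk and CITED. Fos made up 7.86% ± 1.13, 9.94% ± 1.01 and 11.2% ± 1.11, and Fosb at most 0.198% in any library. The Fos share was higher in CITED than in MDSC (exact permutation p = 0.0286, adjusted p = 0.0406), and with blank particles the ranges overlapped (exact p = 0.0571, adjusted p = 0.0771). Fosl1 set the groups with particles apart: its share was 18.8% ± 2.64 with blank and 10.5% ± 1.90 with rapamycin particles, with no overlap (exact permutation p = 0.0286, adjusted p = 0.0406). The Fosl1, Fosl2 and Jund shares were added after their values were seen, so their p-values are descriptions.

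Among EGR genes Egr4 was at 0 in every library. Egr1 rose from 21.1% ± 0.464 of the family in MDSC to 32.7% ± 1.54 with blank and 30.7% ± 1.55 with rapamycin particles. Egr2 made up 54.7% ± 2.58, 47.7% ± 1.74 and 54.6% ± 1.03, and Egr3 24.3% ± 2.36, 19.6% ± 1.99 and 14.7% ± 0.955. Between CITED and MDSC-NP-Blk the Egr2 share was 6.84 points higher in CITED and that of Egr3 differed by -4.86 points, with no overlap for either (exact permutation p = 0.0286, adjusted p = 0.0406), so the order of these shares held in every library of both MDSC-NP-Blk pairs.

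**Figure D3:**
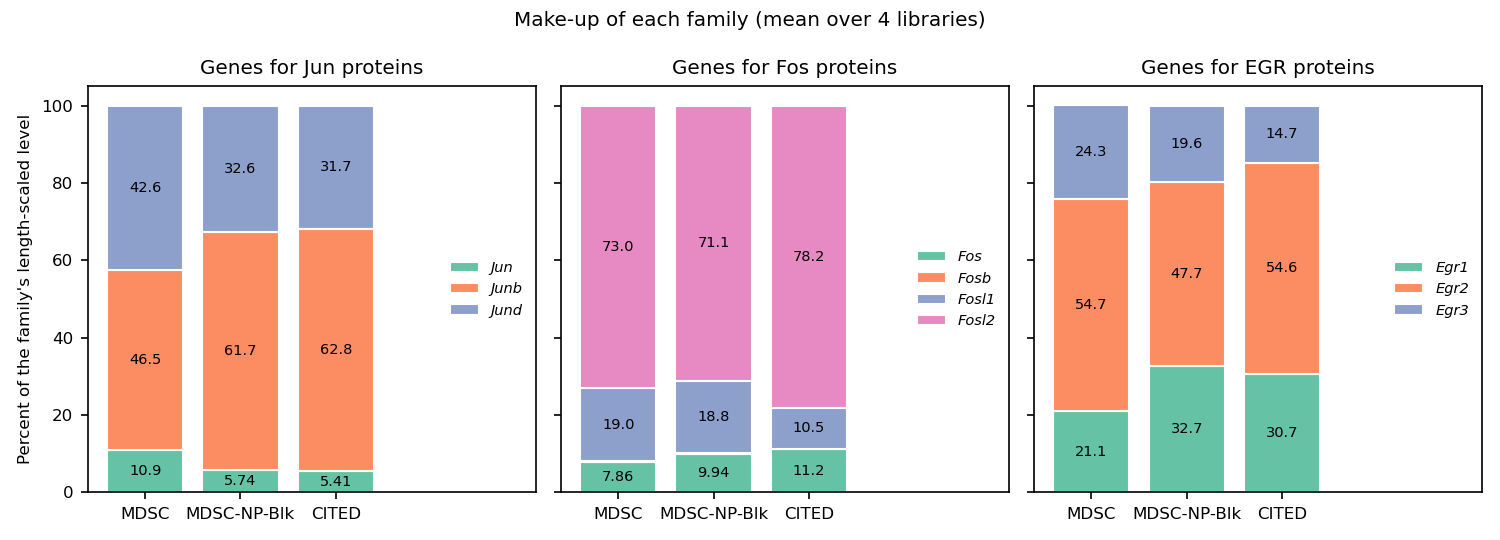
Mean share of each gene in the summed TPM level of its family (vertical axis, percent) in MDSC, MDSC-NP-Blk and CITED; stacked colours are genes and numbers are the shares. Junb grows from 46.5% to 61.7% and 62.8% of the Jun genes, while Egr3 shrinks from 24.3% to 19.6% and 14.7% of the EGR genes.

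On the TPM scale the order of the members was led by Ier3, Junb and Ier2 in all groups. Mean levels were 281, 192 and 122 TPM in MDSC, 541, 447 and 200.1 in MDSC-NP-Blk, and 564, 541 and 218 in CITED. In MDSC they were followed by Atf3 (48.6) and Jun (44.8), then Egr2 (34.6), Egr3 (15.3), Egr1 (13.3), Fos (7.56) and Fosb (0.138). With particles Egr2 and Egr1 passed both Atf3 and Jun, reaching 78.7 and 54.1 TPM in MDSC-NP-Blk and 106 and 59.8 in CITED. The library ranges of neighbours in this order overlapped for Egr1 with Atf3 and Jun with Egr3 in MDSC-NP-Blk, and for Ier3 with Junb and Jun with Atf3 in CITED. In MDSC no neighbours overlapped. Ier3 was above 97.3% of the genes tested in MDSC and above 98.4% in either group with particles, and Egr1 moved from above 62.4% to above 87.9% and 88.7%.

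The members did not vary alike among the libraries of a group. In MDSC-NP-Blk the replicates 2 and 3 lay above the group mean and 1 and 4 below for the 3 EGR genes, for Fos and, less clearly, for Atf3. For Ier3 the order was reversed. For Egr3 the deviations of replicates 1 to 4 were -0.34, 0.30, 0.33 and -0.30 on the log2 scale, a larger spread (SD 0.367) than 95.4% of 10556 genes had in that group. Junb, Jun and Ier2 were among the steadiest genes there, with SDs of 0.0214, 0.0301 and 0.0421 that exceeded those of 1.13%, 3.13% and 7.27% of genes. After removal of group means, the pairwise correlations among 9 members (all but Fosb) over 12 libraries had a median of 0.31 and ran from -0.77 for Fos with Ier3 to 0.82 for Egr1 with Egr2 and for Junb with Ier2. These are descriptions over libraries that share depth and preparation.

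**Figure D4:**
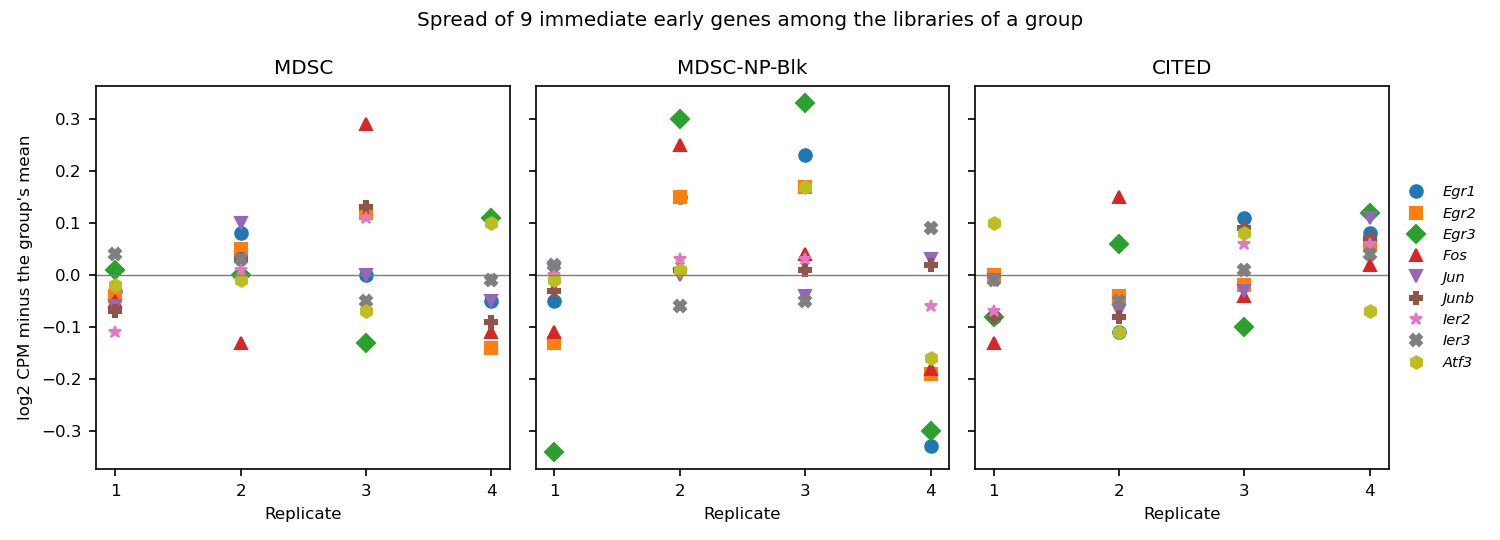
Log2 CPM minus the group's mean (vertical axis) for 9 genes in replicates 1 to 4 (horizontal axis) of MDSC, MDSC-NP-Blk and CITED; each symbol is a gene. In MDSC-NP-Blk Egr3 runs from -0.34 to 0.33 with replicates 2 and 3 high, while Junb stays within 0.03 of its mean.

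Lists of related genes were set beside the members. They were chosen with earlier results of these data known, and some genes, such as Atf5, belong to more than 1 list. Their counts are therefore descriptions. Over all genes 1.88% were called higher and 2.86% lower with blank particles, and 3.28% and 6.70% with rapamycin particles. Of 23 tested other immediate early regulators, 6 were called higher with blank particles and 5 with rapamycin particles, and none lower, with medians of 0.57 and 0.54. Klf2, a zinc finger factor that quiets myeloid cells, went from 1482 ± 52.3 normalized counts to 3514 ± 222 with blank particles (log2 1.24, SE 0.0551, adjusted p = 5.8e-19) and 3977 ± 121 with rapamycin particles (1.42, SE 0.0553, adjusted p = 5.8e-21). Cebpb, a factor needed for MDSC function, rose from 6728 ± 415 to 13540 ± 893 in MDSC-NP-Blk (1.01, SE 0.0516, adjusted p = 2.7e-17) and 19120 ± 690.5 in CITED (1.51, SE 0.0521, adjusted p = 2.9e-22). With blank particles it was 0.94 without replicates 1 and 4, under the fold required. Nr4a1, an orphan nuclear receptor, rose from 286 ± 23.5 to 726 ± 145 in MDSC-NP-Blk (1.35, SE 0.108, adjusted p = 1.8e-12) and 577 ± 54.7 in CITED (1.01, SE 0.109, adjusted p = 9.7e-10).

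Of 24 genes listed under corepressors, mRNA decay and feedback, 7 were called higher with blank and 11 with rapamycin particles, and none lower. Their medians were 0.65 and 0.90. Zfp36l1, which marks AU-rich transcripts for decay, rose from 6593 ± 239 to 17493 ± 482 and 19221 ± 1284 (log2 1.41, SE 0.0488, adjusted p = 1.6e-21; and 1.54, SE 0.0490, adjusted p = 2.9e-23). Gadd45a, a stress sensor, rose from 1153 ± 57.4 to 3121 ± 319 and 3241 ± 83.7 (1.43 and 1.49), and the pseudokinase gene Trib1 from 787 ± 47.5 to 2087 ± 299 and 2207 ± 159 (1.41 and 1.49). Between CITED and MDSC-NP-Blk edgeR called none of either list. Of the other immediate early regulators 6 were higher and 5 lower by adjusted p alone, and DESeq2 called 1, lower. Of the feedback list 7 were higher and 1 lower by adjusted p alone, and DESeq2 called none. Over all genes 22.0% differed by adjusted p alone in that comparison.

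Of 21 AP-1 and ATF partners outside the 10, 1 was called higher with blank and 3 with rapamycin particles. Maff, a small Maf protein, rose from 566 ± 55.0 to 1403 ± 114 and 1484 ± 58.1 (log2 1.31, SE 0.0755, adjusted p = 5.7e-16; and 1.39, SE 0.0756, adjusted p = 3.6e-17). Atf5, a stress-response factor, was the 1 partner called between CITED and MDSC-NP-Blk. It stood at 798 ± 74.0 in MDSC, 1350 ± 109 with blank and 2732 ± 73.0 with rapamycin particles, with a log2 difference of 1.02 between the groups with particles (SE 0.0670, adjusted p = 5.2e-14). Without replicates 2 and 3 of MDSC-NP-Blk this was 0.92, under the fold required, and then 3 partners were called with blank (Maff, Ddit3 and Fosl1) and 2 with rapamycin particles (Maff and Atf5). Of 22 upstream kinases and promoter-bound factors, none was called in any comparison by edgeR or DESeq2. Their median was 0.01 with blank and 0.02 with rapamycin particles, but genes moved both ways. By adjusted p alone 7 were higher and 4 lower with blank particles, where 38.6% of all genes differed. With rapamycin particles 8 were higher and 8 lower, where 44.5% differed. Between CITED and MDSC-NP-Blk 3 were higher and 6 lower, where 22.0% differed. Log2 fold changes ran from -0.42 (Mrtfb) to 0.65 (Mapkapk2) with blank particles. With rapamycin particles they ran from -0.92 (Rps6ka5) to 0.69 (Map2k2). Srf, the CArG-binding factor, stood at 979 ± 66.6, 1027 ± 18.4 and 1177 ± 81.8, and Creb1 at 1922 ± 119, 1637 ± 117 and 1368 ± 34.4. For Srf the log2 difference from MDSC was 0.07 with blank (adjusted p = 0.475) and 0.26 with rapamycin particles (adjusted p = 0.00209). For Creb1 it was -0.23 (adjusted p = 0.00301) and -0.49 (adjusted p = 4.3e-08). Between CITED and MDSC-NP-Blk, Srf differed by 0.19 (adjusted p = 0.0435) and Creb1 by -0.26 (adjusted p = 0.00222).

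**Figure D5:**
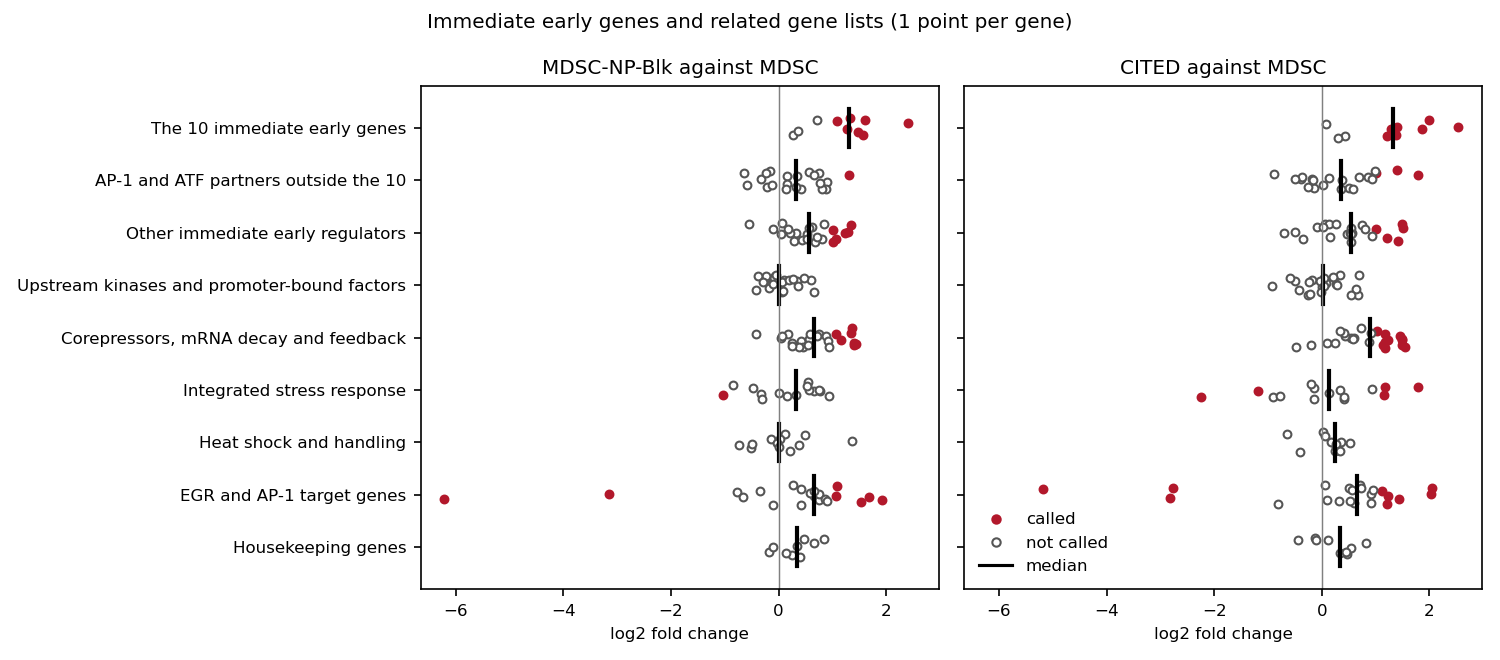
Log2 fold change of each gene (points; filled when called) in the 10 immediate early genes and 8 related lists (rows), for blank (left) and rapamycin particles (right) against MDSC; vertical lines are list medians. The 10 genes have medians of 1.30 and 1.33, and the upstream kinases and promoter-bound factors 0.01 and 0.02.

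Across the 12 libraries, the genes whose log2 levels ran closest to each member were sought among 10547 genes outside the 10. Egr1 was closest to Btg2, Zfp36 and Trib1 (Pearson r = 0.997 for each), which belong to the list of corepressors, mRNA decay and feedback above. Junb was closest to Pim1, Zfp36l1 and Selplg (0.996 each), Ier2 to Btg2 (0.996), Ier3 to Nub1 (0.998) and Egr2 to Ehd1 (0.995). Egr3 was closest to Mapkapk2 (0.991), Fos to Slc17a5 (0.983) and Jun to Necap2 (0.983), and Atf3 had the loosest match, Ptpn6 (0.948). These values mostly follow the 3 group levels that the libraries share and are descriptions without a test. Among the members themselves, Junb and Ier2 ran closest together (0.997).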

How the data were processed

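RNA of 12 libraries was sequenced as paired reads. Per the study's methods and the submitters' processing notes, the authors quantified transcripts with Salmon 1.4.0 against GENCODE transcripts of GRCm39 with decoys (release not given in the sources used here), summed them per symbol with tximport in R 4.3.2, and deposited unfiltered whole-number counts. Salmon assigns ambiguous reads by estimation, so overlapping or similar genes can share reads. A blank symbol (1 row) was left out.

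Counts were fitted with edgeR 4.0.16 (R 4.3.3; TMM factors, glmQLFit, glmQLFTest) on all 12 libraries in 3 groups without covariates, for the 17676 symbols that reached 2 counts in sum, and p-values were adjusted by Benjamini-Hochberg over all of them. The thresholds (adjusted p below 0.05, log2 fold change of at least 1) follow the study. The biological coefficient of variation was 9.03%. Normalized counts are scaled to the mean effective library size. TPM used the length of each gene's main GENCODE transcript. Family shares were compared by two-sided exact permutation tests. A level of 3 counts was the detection floor. The code was tested on simulated data. Intervals cover the spread between libraries.

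Alternatives were other scalings, other filters, DESeq2 1.42.0, a correction for length, a replicate block, fits to the 8 libraries compared, no fold threshold and leaving out libraries. The members and lists were chosen with earlier results of these data known. From each list, the called genes with a mean normalized count above 50 and the largest differences were eligible to be named. They were up to 3 per comparison with up to 2 of the opposite direction, and for each member the 3 most similar genes were eligible. Ppia, Rplp0, Ddit3, Srf, Creb1, Mrtfb, Mapkapk2, Rps6ka5 and Map2k2 were added after their values were seen, as were the Fosl1, Fosl2 and Jund shares.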

Additional observations from a re-analysis of the deposited data

How the results depend on the processing

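For the 10 genes in 3 comparisons, 30 log2 fold changes were recomputed under 23 alternatives (22 for Fosb, which a filter on low counts removed). Of the recomputed values 675 kept their direction and their side of the threshold, 3 kept the direction but fell under the fold required, 9 that were not called changed sign, and 0 called values did. The 3 were Ier2, at 0.93 for CITED and 0.83 for MDSC-NP-Blk against MDSC with library totals alone and at 0.92 for MDSC-NP-Blk with the length correction; the cause was not tested. The count of members called stayed at 6 or 7 of 10 in both comparisons with MDSC (9 with no fold threshold) and, for CITED against MDSC-NP-Blk, was 0 except with no fold threshold, where it was 2. Leaving out any 1 library left these counts at 7, 7 and 0. Fitted with the replicate block, 7, 7 and 0 members were called, and over all genes 1621, 766 and 441 in place of 1765, 838 and 469 for rapamycin particles and for blank particles against unmodified cells and for CITED against MDSC-NP-Blk. Deviations of same-numbered libraries correlated at -0.02, 0.01 and 0.05 on average between groups (from -0.06 to 0.14), so the numbers were not taken to pair the samples. Of the 9 sign changes 5 came with the pairs of MDSC-NP-Blk libraries and stand with the results, and 4 were Fosb in CITED against MDSC, at -0.20 (library totals), -0.09 (replicate block), -0.05 (without MDSC replicate 4) and -0.61 (without CITED replicate 3). Fosb, at 1 to 14 reads, is limited by depth.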

Other observations

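Most genes that EGR and AP-1 proteins are known to regulate were higher with particles, but some were far lower. Of 22 such genes, 5 were called higher and 2 lower with blank particles, where 1.88% and 2.86% of all genes were. With rapamycin particles 6 were called higher and 3 lower, where 3.28% and 6.70% were. Their medians were 0.65 and 0.66. By adjusted p alone 16 were higher and 5 lower with blank particles, where 38.6% of all genes differed in either direction. With rapamycin particles 16 were higher and 4 lower, where 44.5% differed. Without MDSC-NP-Blk replicates 2 and 3, the calls with blank particles were 4 higher and 2 lower, with a median of 0.46. Without replicates 1 and 4 they were 6 higher and 3 lower, with a median of 0.80. Il1b, the inflammatory cytokine, rose from 2132 ± 136 normalized counts in MDSC to 8085 ± 1503 in MDSC-NP-Blk (log2 1.92, SE 0.0798, edgeR adjusted p = 1.3e-19) and 8842 ± 398 in CITED (2.05, SE 0.0801, adjusted p = 6.8e-21). Ccl2, the monocyte chemoattractant, fell from 1245 ± 69.9 to 15.9 ± 6.86 in MDSC-NP-Blk (log2 -6.21, SE 0.173, adjusted p = 4.1e-24) and 34.3 ± 14.1 in CITED (-5.18, SE 0.158, adjusted p = 9.0e-24). Ccnd1, the cell cycle gene for cyclin D1, fell from 495 ± 31.6 to 55.2 ± 10.1 and 69.5 ± 15.3 (-3.16 and -2.82). The matrix protease gene Mmp13 was higher in CITED than in MDSC-NP-Blk, at 1617 ± 43.9 against 807 ± 90.1 (1.01, SE 0.0946, adjusted p = 2.4e-10), and the difference was 0.89 without MDSC-NP-Blk replicates 2 and 3.

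Of 15 integrated stress response genes, the pathway that translates Atf4 when protein synthesis is stressed, 1 was called lower and none higher with blank particles by edgeR and DESeq2 alike. Over all genes edgeR called 2.86% lower and 1.88% higher. By adjusted p alone 9 were higher and 3 lower with blank particles, where 38.6% of all genes differed. Without MDSC-NP-Blk replicates 2 and 3, 1 (Ddit3) was called higher. With rapamycin particles 3 were called higher and 2 lower, where 3.28% and 6.70% of all genes were. By adjusted p alone 8 were higher and 6 lower, where 44.5% differed. Asns, asparagine synthetase, fell from 800.2 ± 50.3 to 391 ± 35.4 and 350.4 ± 27.4 (log2 -1.04 and -1.19), and the lipoprotein receptor gene Vldlr from 142 ± 15.9 to 29.7 ± 9.22 in CITED (-2.24, SE 0.220, adjusted p = 1.2e-10). Of 12 heat shock and handling genes, edgeR and DESeq2 called none in any comparison. Their medians were 0.01 with blank and 0.25 with rapamycin particles against unmodified cells, and 0.14 for CITED against MDSC-NP-Blk. By adjusted p alone 3 were higher and 3 lower with blank particles, where 38.6% of all genes differed. With rapamycin particles 5 were higher and 2 lower, where 44.5% differed. For CITED against MDSC-NP-Blk 4 were higher and 2 lower, where 22.0% differed.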
